A study of Mus musculus with 35 samples.

Results

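A set of 402 regions of open chromatin was taken from 76018 ATAC-seq peaks of the mouse embryo, of which 73975 lie on autosomes. The regions were selected on measured values: at least 10 CPM (counts scaled to the total count in peaks of a library) in E9.5 pro-HSC/HPC with at least 3 times the level of E9.5 hemogenic endothelium, at least 3 times the level of E10.5 hemogenic endothelium in E10.5 pre-HSC II, and pre-HSC II under 3 times pro-HSC/HPC. They are therefore the regions that were more open in blood-forming cells than in the hemogenic endothelium of the same day at both E9.5 and E10.5. Without the upper limit on pre-HSC II the rule took 444 regions.

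ATAC-seq inserts sequencing adapters into accessible DNA with a transposase, so that a region's count grows with its accessibility. The 35 libraries each came from a sorted pool of 1500 cells of embryos with a transgene that the labels call 23GFP, carried by every group. The groups were hemogenic endothelium (HE) and endothelial cells (EC) at E8.5, pro-HSC/HPC, HE and EC at E9.5, and pre-HSC II, pre-HSC I, HE and EC at E10.5. HSC stands for hematopoietic stem cell and HPC for hematopoietic progenitor cell. Each group had 4 libraries except pro-HSC/HPC with 3. The tissue is labelled PAS+VU for E8.5 and E9.5 and AGM+VU for E10.5, so that between E9.5 and E10.5 day and tissue cannot be told apart. Libraries 2 and 3 of pre-HSC I differed by less than the sampling noise and were counted as 1 sample, their mean, which left 3 pre-HSC I samples. For E9.5 the day comes from the sample titles, since the tissue field there carries the name of the earlier day.

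In the endothelial-to-hematopoietic transition, flat endothelial cells of the large embryonic arteries acquire a blood fate as hemogenic endothelium, round up and bud into the lumen. The first cells to leave the wall are progenitors and immature stem cell precursors, called pro-HSC, pre-HSC I and pre-HSC II in the order of maturation. Pre-HSC I cells still lack the pan-leukocyte surface protein CD45, which pre-HSC II cells carry. Regions that open as this fate is taken up include enhancers, the distant switches at which transcription factors act. None of the 402 regions is assigned to a gene here, and they are named by their position on build mm9, as the deposited table writes it.

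Depth differed widely: the shallowest library, pre-HSC II library 1, had a total count in peaks of 456770, so that 3 counts stood for 6.57 CPM, and the deepest, library 1 of E9.5 HE, had 7415315, so that 3 counts stood for 0.405 CPM. A single region's value was therefore coarse in the shallow libraries. All 402 regions passed the count filter, as did 67108 peaks in all. The filter read all groups, so a region could pass through the blood groups that the rule made high. Filtered on the compared groups alone, 207 of the regions were tested in pre-HSC I against EC. In E8.5 HE against EC 118 were, and in each contrast of EC between days 117. In a pool of cells, fewer cells with an open region and less opening per cell cannot be told apart.

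The values that the rule selected on are given as a description. Pro-HSC/HPC over E9.5 HE had a median ratio of 4.57, from 3.01 to 55.9, and pre-HSC II over E10.5 HE a median of 7.63, with 2 regions at 0 in HE. Pre-HSC II over pro-HSC/HPC ran from 0.239 to 2.99 with a median of 1.35. The selection fixed the direction of these contrasts, so the next counts support nothing about the regions. In the edgeR quasi-likelihood fit of all groups, 197 of the 402 regions were called higher in pro-HSC/HPC than in E9.5 HE at an adjusted p under 0.05, beside 0.644% of all peaks, and 342 were called higher in pre-HSC II than in E10.5 HE, beside 6.13% of all peaks. With each library left out in turn the first count was 65 to 131, beside 0.166% to 0.427% of all peaks. At the rule's edges, chr2:153409185-153409705 entered with 10.0 CPM in pro-HSC/HPC and chr1:52568635-52569001 stayed out with 9.98 CPM, while chr10:20774521-20775176 entered with a pre-HSC II to HE ratio of 3.00 and chr3:104474099-104474907 stayed out with 2.99.

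The 402 regions made up a small part of each library. Their share of the counts was 0.867%, 1.18%, 1.06% and 0.840% in the pre-HSC II libraries and 0.742%, 0.681% and 0.711% in the pro-HSC/HPC libraries. Pre-HSC I, a group that the rule did not use, had 0.231% in library 1, 0.614% in the merged libraries 2 and 3 and 0.282% in library 4. EC of E10.5, which the rule did not use either, had 0.111%, 0.0856%, 0.0672% and 0.109%. Every pre-HSC I sample lay above every EC sample and below every pro-HSC/HPC and pre-HSC II library. The 3 pre-HSC I samples differed widely among themselves, the merged pair with a larger share than libraries 1 and 4.

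The HE and EC groups lay below these. The share averaged 0.139 ± 0.0221% in E8.5 HE and 0.175 ± 0.0333% in E8.5 EC, while at E9.5 it averaged 0.154 ± 0.0105% for HE and 0.0967 ± 0.0082% for EC (SD, n = 4 each). E10.5 HE averaged 0.131 ± 0.0537% and E10.5 EC 0.0934 ± 0.0210% (SD, n = 4 each). E9.5 EC did not overlap with E9.5 HE or with E8.5 EC. E8.5 EC library 2 had the highest share of these 24 HE and EC libraries, 0.217%, just under the lowest pre-HSC I sample.

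**Figure D1:**
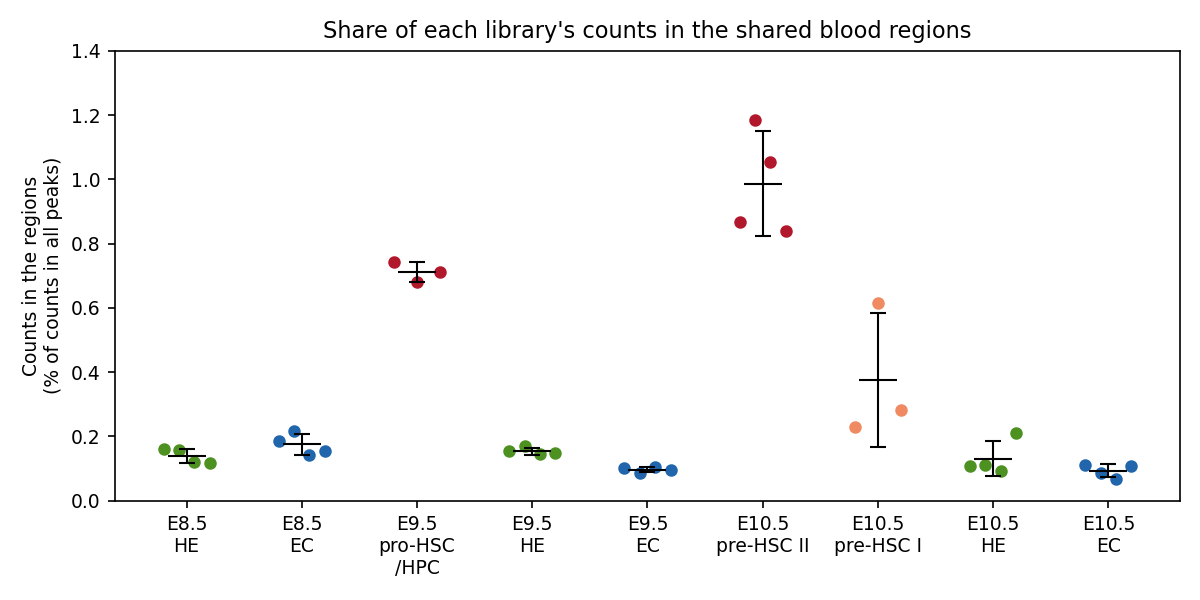
Share of each library's counts that fall in the 402 regions (vertical axis, % of counts in all peaks) for the 9 groups; points are libraries, with the merged pre-HSC I pair as 1 point, and bars are the mean and SD. Pre-HSC I spreads from 0.231% to 0.614%, above every HE and EC library and below the pro-HSC/HPC libraries, which start at 0.681%.

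Single regions were graded likewise. The median over the 402 regions of the group mean was 21.4 CPM in pre-HSC II, 14.7 CPM in pro-HSC/HPC and 8.03 CPM in pre-HSC I, against 3.25 CPM in E9.5 HE, 2.69 CPM in E8.5 EC, 2.61 CPM in E10.5 HE and 2.13 CPM in E8.5 HE. EC of the later days was lowest, at 1.70 CPM (E9.5) and 1.59 CPM (E10.5). The pre-HSC I mean lay between HE and pre-HSC II of the same day at 381 regions (94.8%), above pre-HSC II at 10 and below HE at 11. It was above pro-HSC/HPC at 6 regions. Of the 402 regions, 360 reached 10 CPM in pre-HSC II and 129 in pre-HSC I, against 39 in E8.5 EC, 22 in E8.5 HE, 13 and 10 in the HE of E9.5 and E10.5, and 7 and 5 in the EC of those days. Since the rule set the levels of pro-HSC/HPC, pre-HSC II and both later HE groups, no test was made of these orders.

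**Figure D2:**
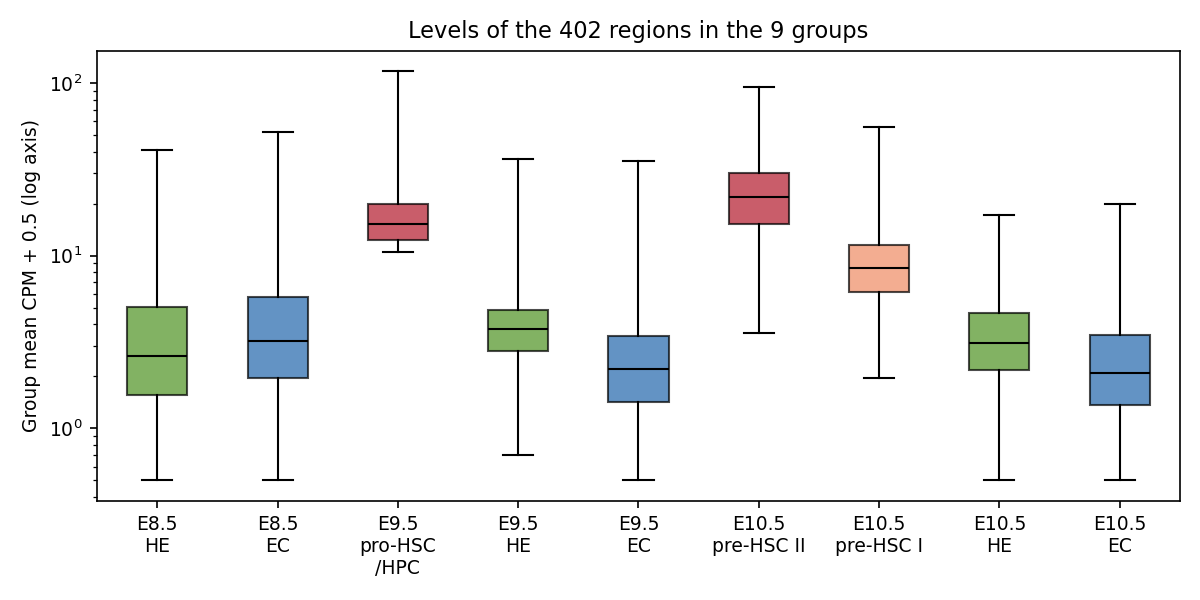
Group mean CPM plus 0.5 of the 402 regions on a log axis; boxes give the median and quartiles and whiskers the lowest and highest region. The pre-HSC I box, with a median of 8.03 CPM before the 0.5 is added, sits between pro-HSC/HPC (14.7 CPM) and the HE and EC groups (1.59 to 3.25 CPM).

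Pre-HSC I against EC at E10.5 was the first of 4 contrasts between groups that the rule did not use. Of the 402 regions, 218 (54.2%) were higher in pre-HSC I by edgeR at an adjusted p under 0.05, beside 2.19% of all peaks, and 0 were lower, beside 3.72% of all peaks. At an unadjusted p under 0.05 edgeR had 312 regions higher and 0 lower, beside 7.99% and 10.0% of all peaks, and DESeq2 called 0 lower, beside 5.07% of all peaks. A log2 fold change above 0 was found by edgeR at 389 regions (96.8%), beside 52.7% of all peaks. The median log2 fold change was 2.36 with quartiles of 1.45 and 3.04, beside a median of 0.05 over all peaks. At 215 regions (53.5%) every pre-HSC I sample lay above every EC library, beside 7.89% of all peaks. With the compared groups alone, 109 of 207 tested regions (52.7%) were higher by edgeR, beside 1.96% of all peaks.

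The merged pre-HSC I pair carried a good part of these calls. It was the highest of the 3 pre-HSC I samples at 332 regions (82.6%) and the lowest at 14. Without it, edgeR called 83 regions (20.6%) higher in pre-HSC I, beside 0.805% of all peaks, and the median log2 fold change was 1.60, beside -0.01 over all peaks. Without library 1 or library 4 of pre-HSC I the count was 212 or 206.

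The regions that met only one side of the rule were set beside the shared ones. Of 197 regions that met the conditions for pro-HSC/HPC but were under 3 times HE in pre-HSC II, 38 (19.3%) were higher in pre-HSC I than in EC, with a median log2 fold change of 1.09. Of 2630 tested regions that reached 10 CPM and 3 times HE in pre-HSC II but stayed under 3 times HE in pro-HSC/HPC, 234 (8.90%) were higher and 13 lower, with a median of 0.68. The nearest peak outside the set within 20 kb was also read: of 320 such neighbours, at a median distance of 3247 bp, 15 (4.69%) were higher in pre-HSC I and 7 lower, with a median of 0.22. The difference between these sets was not tested.

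**Figure D3:**
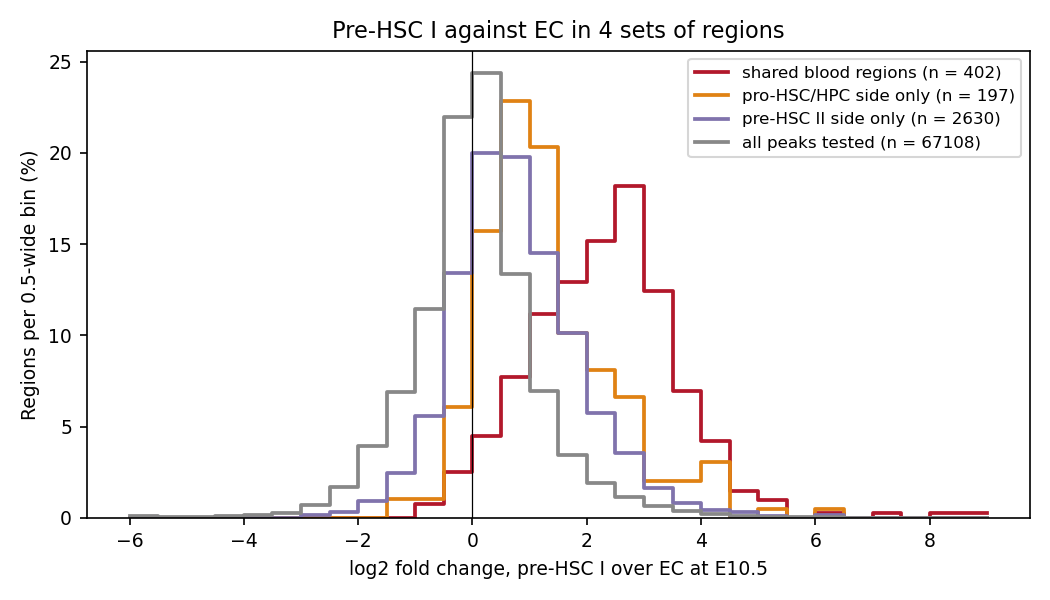
Distribution of the log2 fold change of pre-HSC I over EC at E10.5 (horizontal axis) in bins of 0.5, as the percent of regions of each set; lines are the 402 shared regions, the regions that met only the pro-HSC/HPC or only the pre-HSC II conditions, and all tested peaks. The shared regions centre on 2.36, against 1.09, 0.68 and 0.05 in the other sets.

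The 402 regions were also divided by the balance between the blood groups. Where pre-HSC II was below pro-HSC/HPC, 60 of 103 regions (58.3%) were higher in pre-HSC I than in EC. Where pre-HSC II was 1 to 2 times pro-HSC/HPC, 106 of 207 (51.2%) were, and at 2 to 3 times 52 of 92 (56.5%). With the regions ordered by the mean of pro-HSC/HPC and pre-HSC II, the share was 38.6% among the 101 lowest, 54.0% and 53.0% in the next groups of 100 and 71.3% among the 101 highest, which hold more counts. The median log2 fold change in these groups was 2.18, 2.45, 2.23 and 2.48 in that order. Across the 402 regions, the pre-HSC I level had a Spearman rho of 0.66 with pro-HSC/HPC, 0.58 with pre-HSC II, 0.57 with the width of the region and 0.32 with E10.5 EC. These correlations are descriptions over regions, which share libraries, width and depth.

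The 8 regions with the highest mean of both blood groups show the pattern in single libraries. chr12:12503086-12504471 had 107, 129 and 113 CPM in pro-HSC/HPC and 35.0, 98.7, 92.7 and 76.5 CPM in pre-HSC II. In pre-HSC I it had 19.6, 74.0 and 29.3 CPM, against 6.61, 2.23, 0.233 and 0.552 CPM in EC. The groups did not overlap, and by edgeR the log2 fold change of pre-HSC I over EC was 4.29 ± 0.55 (SE; adjusted p 5.57e-07). Here and below the SE comes from the fit of all groups and does not measure the spread of the pre-HSC I samples alone. At E9.5 this region also stood high in HE, at 28.3, 46.7, 29.4 and 39.6 CPM, against 1.37, 2.69, 1.71 and 5.03 CPM in EC.

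chr6:26716208-26717603 differed from the other 7 in that the pre-HSC I mean was about as high as that of pre-HSC II. It had 56.3, 59.6 and 48.8 CPM in pre-HSC I, against 6.61, 5.21, 5.60 and 6.91 CPM in E10.5 EC, a log2 fold change of 3.11 ± 0.41 (SE; edgeR adjusted p 1.21e-06). The 3 pre-HSC I samples were close to each other here. Pre-HSC II had 39.4, 20.9, 82.7 and 75.7 CPM and pro-HSC/HPC 69.5, 61.8 and 65.7 CPM. At E8.5 it had 35.5, 18.6, 10.6 and 9.77 CPM in HE, against 7.21, 5.98, 6.0 and 9.68 CPM in EC. Those groups did not overlap, but edgeR gave an adjusted p of 0.097 with a log2 fold change of 1.32 ± 0.42 (SE).

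chr6:124325245-124326089 had 10.4, 71.6 and 21.9 CPM in pre-HSC I, against 3.78, 3.35, 3.03 and 3.87 CPM in EC, a log2 fold change of 3.26 ± 0.46 (SE; edgeR adjusted p 4.68e-06). The EC libraries were tightly grouped and the pre-HSC I samples spread over a wide range. chr11:93682619-93683712 had 21.4, 48.2 and 28.0 CPM in pre-HSC I, against 14.6, 8.75, 6.07 and 9.12 CPM in EC, a log2 fold change of 1.75 ± 0.39 (SE; edgeR adjusted p 0.00246). Its groups did not overlap, though EC held more counts here than at most of the 402 regions. chr3:144290747-144292058 had 11, 53.0 and 8.53 CPM in pre-HSC I, against 1.42, 0.745, 1.87 and 5.25 CPM in EC, a log2 fold change of 3.35 ± 0.59 (SE; edgeR adjusted p 0.000167). Without the merged pre-HSC I pair chr11:93682619-93683712 and chr3:144290747-144292058 lost their call, with edgeR adjusted p of 0.0824 and 0.0840.

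The pair decided the call of chr15:103169146-103171021 as well, which had 12.9, 76.1 and 26.2 CPM in pre-HSC I, against 12.3, 4.47, 6.07 and 18.5 CPM in EC. Library 1 of pre-HSC I fell inside the EC range, and the log2 fold change of 1.90 ± 0.39 (SE; edgeR adjusted p 0.000991) became 0.84 with an edgeR adjusted p of 0.320 without the pair. chr5:150057186-150058071 had 17.1, 69.2 and 19.5 CPM in pre-HSC I, against 11.3, 24.6, 23.8 and 17.4 CPM in EC, and was not called (log2 fold change 0.79 ± 0.37, SE, edgeR adjusted p 0.239). The groups overlapped, and without the pair the fold change was -0.24. This region was open in endothelium at E8.5, with 50.2, 34.6, 35.5 and 40.8 CPM in HE and 49.7, 65.7, 43.9 and 47.7 CPM in EC. At E9.5 its mean was 35.0 CPM in EC and 17.1 CPM in HE.

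**Figure D4:**
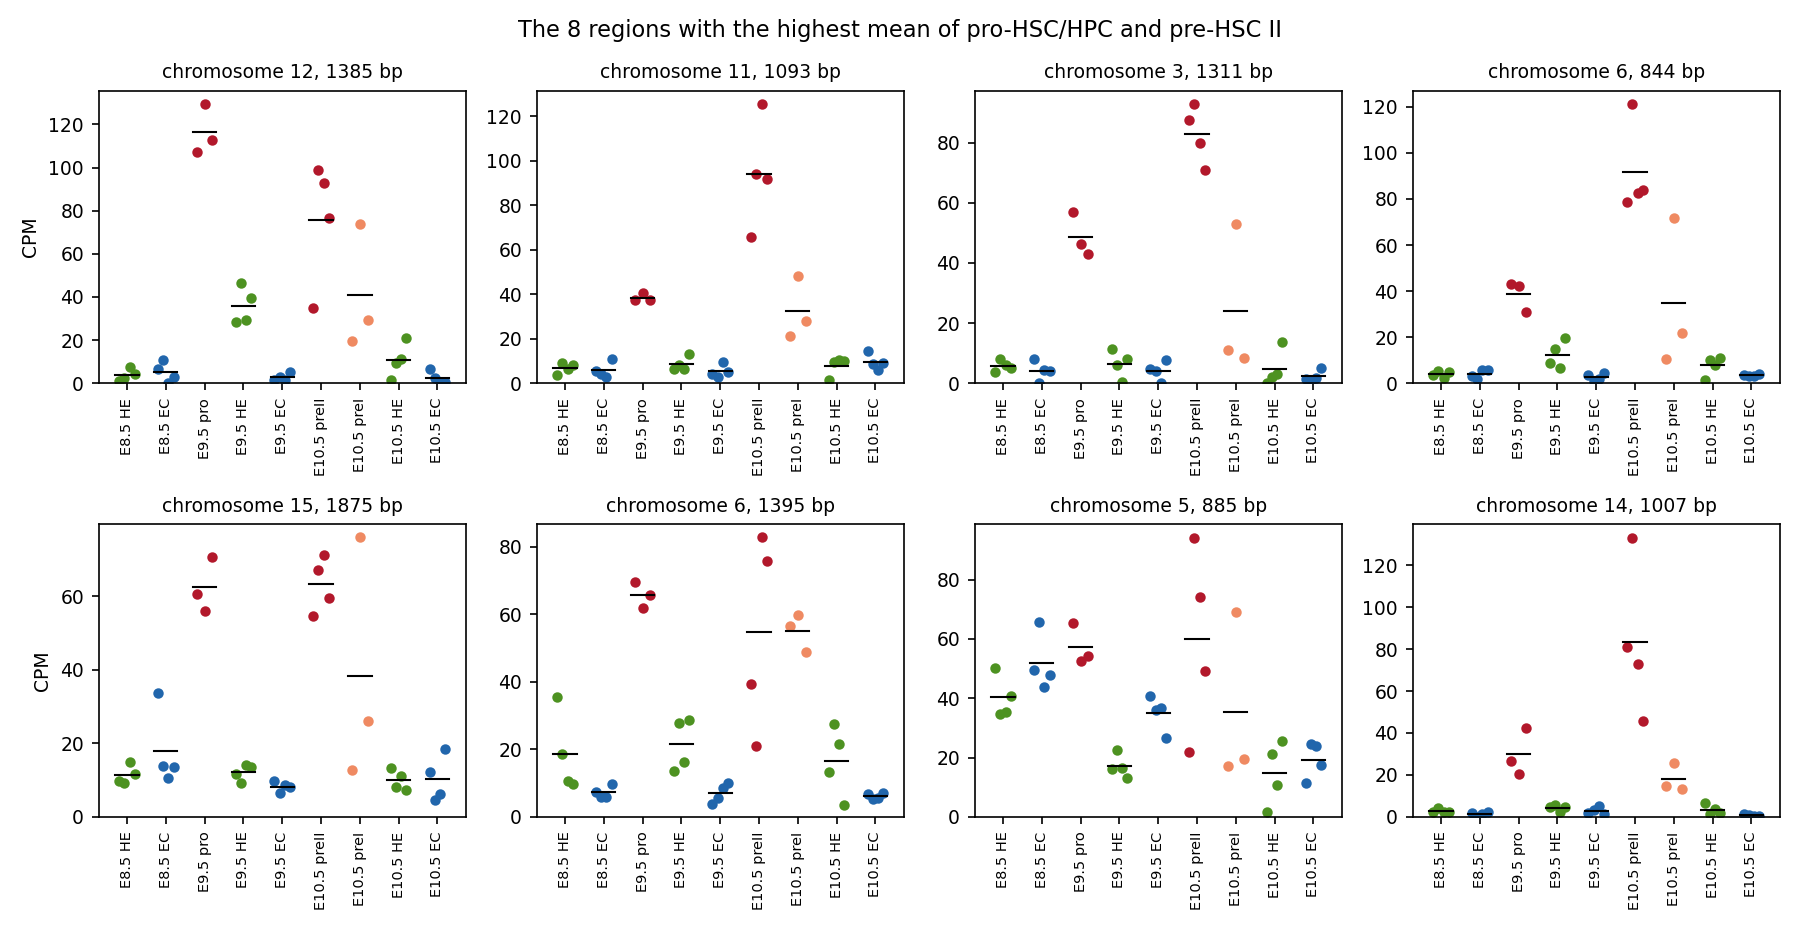
CPM in every library (points) with the group mean (line) for the 8 regions with the highest mean of pro-HSC/HPC and pre-HSC II, each panel titled by chromosome and width; pro is pro-HSC/HPC, and preII and preI are pre-HSC II and pre-HSC I. The merged pre-HSC I pair is the highest pre-HSC I point in each panel, and the chromosome 5 region reaches 65.7 CPM in E8.5 EC.

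Among the regions with the smallest p in pre-HSC I against EC, several held next to no counts in endothelium. In 3 regions no E10.5 EC library had a count, and all 3 were higher in pre-HSC I by edgeR. The pick of regions with no count in EC favoured that direction, so this count supports nothing about the set. The share among all peaks with no count in EC was not computed. chr9:99082498-99083249 had 12.2, 27.2 and 8.53 CPM in pre-HSC I, at least 87.0-fold above a floor of 3 counts over the EC group. chr6:119868380-119869063 had 6.12, 20.8 and 7.31 CPM in pre-HSC I, at least 62.6-fold above that floor. chr5:139763120-139763659, named for its zeros after its values were seen, had 2.45, 11.5 and 4.88 CPM in pre-HSC I, at least 34.4-fold above the floor. The floor allows for counting error in EC alone, while the pre-HSC I counts entered as measured. If reads enter in pairs, the bounds would be lower.

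chr16:92822150-92822993 was 1 of the 10 regions where the pre-HSC I mean exceeded pre-HSC II. It had 18.4, 38.9 and 13.4 CPM in pre-HSC I, against 1.89, 1.68, 0.467 and 1.93 CPM in EC, a log2 fold change of 3.95 ± 0.52 (SE; edgeR adjusted p 8.27e-07). Pre-HSC II had 13.1, 14.9, 17.1 and 9.67 CPM, which overlapped with pre-HSC I, and pro-HSC/HPC 42.5, 65.7 and 39.8 CPM. It lay in a run with chr16:92826155-92826499, and both were higher in pre-HSC I than in EC. chr15:63479584-63480381 had 15.3, 47.7 and 13.4 CPM in pre-HSC I, against 0.945, 2.05, 0 and 0.552 CPM in EC, a log2 fold change of 4.66 ± 0.61 (SE; edgeR adjusted p 8.27e-07). No pre-HSC I sample came near the EC range there.

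At the other end, 6 regions had the lowest pre-HSC I level relative to the smaller of the blood group means. chr15:59973169-59973599 had 0, 1.91 and 2.44 CPM in pre-HSC I, against 1.89, 0.745, 0.467 and 0.552 CPM in EC, beside 17.5, 37.4, 11.4 and 20.1 CPM in pre-HSC II. Pre-HSC I and EC overlapped (edgeR adjusted p 0.793). chr3:96097781-96098163 had 1.22, 4.06 and 1.22 CPM in pre-HSC I, against 1.89, 0, 1.87 and 2.49 CPM in EC, and overlapped too (edgeR adjusted p 0.856). chr6:72225592-72225866 and chr13:13470604-13471076 were not called either (edgeR adjusted p 0.341 and 0.183).

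The other 2 of these low regions were called higher in pre-HSC I, on few counts. chr14:105830650-105831270 had 1.22, 3.58 and 4.88 CPM in pre-HSC I, against 0, 0.186, 0 and 0.276 CPM in EC (edgeR adjusted p 0.00901). Its call was lost after thinning (edgeR adjusted p 0.451) and without library 4 of pre-HSC I (edgeR adjusted p 0.0527). chr9:114008031-114008370 had 0, 7.4 and 0 CPM in pre-HSC I, against 0.945, 0, 0 and 0 CPM in EC (edgeR adjusted p 0.0427). Its counts all come from the merged pair, and without that pair its fitted log2 fold change was -2.17. By edgeR its call was also lost with cyclic loess offsets (adjusted p 0.118) and with the replicate number as a block (adjusted p 0.0711). Without EC library 2, 3 or 4 it was lost too (edgeR adjusted p 0.167, 0.137 and 0.113). Both had 2 counts over the EC group.

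E8.5 HE against E8.5 EC showed the regions before blood cells were sampled. By edgeR 1 of the 402 regions was higher in HE, beside 1.31% of all peaks, and 0 were lower, beside 0.13% of all peaks. At an unadjusted p under 0.05 edgeR had 15 higher and 28 lower, beside 8.99% and 4.89% of all peaks. DESeq2 called 4 in each direction, beside 2.93% of all peaks higher and 0.520% lower. With the compared groups alone, 3 of 118 tested regions (2.54%) were higher and 6 (5.08%) lower, beside 4.85% and 2.45% of all peaks. In the fit of all groups the median log2 fold change was -0.18, beside 0.02 over all peaks. It was above 0 at 163 regions (40.5%), beside 51.5% of all peaks. The HE mean was below the EC mean at 251 regions (62.4%). The called region, chr19:32313145-32313952, had 6.12, 5.32, 3.36 and 4.88 CPM in HE, against 1.60, 0, 1.5 and 0.717 CPM in EC. These groups did not overlap, and the log2 fold change was 2.26 ± 0.61 (SE; edgeR adjusted p 0.0381). At each library left out in turn the adjusted p from edgeR was between 0.0552 and 0.126, so the call needed all 8 libraries. The same region had 6.12, 16.5 and 10.4 CPM in pre-HSC I, against 1.89, 2.23, 1.4 and 1.66 CPM in E10.5 EC (log2 fold change 2.52 ± 0.53, SE, edgeR adjusted p 0.00148).

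EC of E9.5 was set against EC of E8.5. By edgeR 29 regions (7.21%) were lower in E9.5 EC than in E8.5 EC, beside 4.59% of all peaks, and 3 were higher, beside 6.49% of all peaks. In this fit the share of lower regions was near that of all peaks. With the compared groups alone, 37 of 117 tested regions (31.6%) were lower, beside 13.0% of all peaks. The share thus depended on the fit and is not read as a property of the set. In the fit of all groups the median log2 fold change was -0.44, beside -0.07 over all peaks. Among the regions that met only one side of the rule, 26 of 197 (13.2%) on the pro-HSC/HPC side and 235 of 2630 (8.94%) on the pre-HSC II side were lower. The E8.5 libraries 1 and 2 were shallow, and without those of both populations 13 regions (beside 0.905% of all peaks) were lower and 0 higher. Without library 2 of E9.5 EC 19 were lower, and with each library left out in turn 0 to 2 were higher. From E9.5 EC to E10.5 EC 0 regions were higher, beside 0.0671% of all peaks, and 0 were lower, beside 0.249% of all peaks, by edgeR, with a median log2 fold change of -0.05. At an unadjusted p under 0.05 there were 16 higher and 28 lower, beside 4.38% and 4.77% of all peaks. DESeq2 called 1 higher and 6 lower, beside 0.231% and 1.06% of all peaks, so these counts were near the background.

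chr4:6264285-6264947 had 3.84, 4.53, 0 and 0.943 CPM in E9.5 EC, against 23.2, 43.8, 15.4 and 24.7 CPM in E8.5 EC, a log2 fold change of -2.93 ± 0.48 (SE; edgeR adjusted p 2.78e-05). The groups were far apart. E8.5 HE was as high, at 34.3, 26.6, 17.3 and 13.1 CPM. Pre-HSC II had 17.5, 8.97, 14.3 and 4.83 CPM and pro-HSC/HPC 16.0, 6.18 and 9.74 CPM, so the region was more open in both E8.5 groups on average than in the blood groups that selected it.

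chr3:87704975-87705803 had 5.08, 3.36, 0 and 1.89 CPM in E9.5 EC, against 30.5, 31.9, 24.0 and 17.2 CPM in E8.5 EC, a log2 fold change of -2.77 ± 0.50 (SE; edgeR adjusted p 0.000118). No libraries overlapped. It had 10.4, 9.07 and 11.6 CPM in pre-HSC I, against 0, 4.28, 1.4 and 2.49 CPM in E10.5 EC (log2 fold change 2.09 ± 0.56, SE, edgeR adjusted p 0.0132). chr13:76730676-76732495 had 2.33, 1.01, 4.27 and 3.46 CPM in E9.5 EC, against 22.4, 17.9, 13.5 and 7.89 CPM in E8.5 EC, a log2 fold change of -2.36 ± 0.46 (SE; edgeR adjusted p 0.000418). It too was higher in pre-HSC I than in E10.5 EC (log2 fold change 1.54 ± 0.47, SE, edgeR adjusted p 0.0361).

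Of the 29 regions lower in E9.5 EC, 16 were also higher in pre-HSC I than in E10.5 EC, the set as a whole having 218 of 402. The median of their EC group means was 10.3 CPM at E8.5, 1.77 CPM at E9.5 and 2.04 CPM at E10.5. The choice of these regions fixed the fall from E8.5 to E9.5 and favoured a high E8.5 EC level. At E10.5 these regions had 20.8 CPM in pre-HSC II and 9.40 CPM in pre-HSC I. The E8.5 EC mean was above the pre-HSC I mean at 18 of them. Of the 39 regions that reached 10 CPM in E8.5 EC, 19 were among the 29, and 14 also reached 10 CPM in E8.5 HE. Of these 39, 17 (43.6%) were higher in pre-HSC I than in E10.5 EC.

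**Figure D5:**
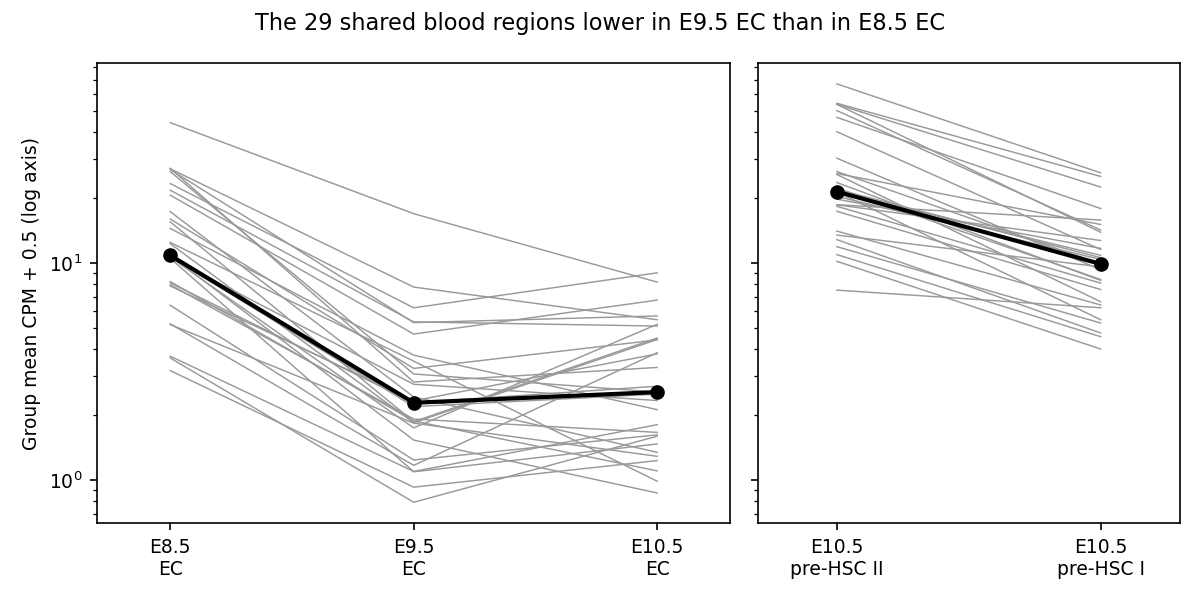
Group mean CPM plus 0.5 on a log axis for the 29 regions lower in E9.5 EC than in E8.5 EC; grey lines are regions and black points their medians, for EC by day on the left and the E10.5 pre-HSC groups on the right. Before the 0.5 is added the medians are 10.3, 1.77 and 2.04 CPM in EC from E8.5 to E10.5, and 20.8 and 9.40 CPM in pre-HSC II and pre-HSC I. The fall from E8.5 to E9.5 EC was fixed by the choice of the regions.

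Of the 3 regions that were higher in E9.5 EC than in E8.5 EC, 2 had next to no counts in E8.5 EC. chr15:58835480-58836233 had 10.7, 18.5, 10.3 and 15.7 CPM in E9.5 EC, against 3.21, 9.96, 3.38 and 6.45 CPM in E8.5 EC (log2 fold change 1.57 ± 0.53, SE, edgeR adjusted p 0.0409). Its groups did not overlap by a narrow margin. The call was lost with DESeq2 (adjusted p 0.0532). By edgeR it was lost with RLE (adjusted p 0.0589), with total counts (adjusted p 0.0933), after thinning (adjusted p 0.767) and without any of several single libraries. chr5:139775134-139775715 had 1 count over the E8.5 EC group, and its pooled CPM in E9.5 EC was about 11 times as high, with an exact 95% counting interval of 1.71 to 432. chr9:99083600-99084112 had 2 counts over the E8.5 EC group, with a ratio of 7.67 and an interval of 1.97 to 65.8. Reads amplified by PCR are not independent molecules, so these intervals cover at most counting error. By edgeR with total counts chr5:139775134-139775715 and chr9:99083600-99084112 lost their calls (adjusted p 0.0512 and 0.0640). Both calls were also lost without any of several single libraries.

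The regions were narrower than other peaks open in the same cells and mostly lay apart from each other. Their median width was 606 bp (170 to 2410 bp), against 1134 bp for the 19736 autosomal peaks with at least 10 CPM in pro-HSC/HPC and 495 bp for autosomal peaks in general. Widths of 2 kb or more were found at 2 of the 402 regions (0.498%), against 10.9% of those open peaks. Those open peaks were not limited in HE, while the regions had a median of 14.7 CPM in pro-HSC/HPC, not far above the floor of 10 CPM. Within the set wider regions had a higher pre-HSC I level (Spearman rho 0.57), and widths at matched levels were not compared. The 402 regions made up between 0.262% (chromosome 17) and 0.738% (chromosome 13) of the peaks of an autosome. A total of 364 regions had no other within 20 kb, and the remaining 38 formed 17 runs.

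The densest 1 Mb held 6 of the 402 regions, on chromosome 4 at 145 Mb. They formed 2 runs, chr4:145022059-145043301 and chr4:145153797-145172972, of 3 regions each. None of the 6 was called in pre-HSC I against EC, although each had a fold change above 0: chr4:145022059-145022531 came closest with a log2 fold change of 1.76 (edgeR adjusted p 0.0637), and the lowest was 0.93. Group means of the 6 ran from 4.83 to 13.5 CPM in pre-HSC I, against 1.44 to 5.01 CPM in E10.5 EC, and from 5.55 to 16.5 CPM in E8.5 EC. The 65 tested peaks of that 1 Mb had a median log2 fold change of 1.32 in pre-HSC I against EC, beside 0.05 over all tested peaks. On chromosome 13, 2 of the 3 regions in the run chr13:3831330-3853391 were higher in pre-HSC I, and on chromosome 14 1 of 3 in chr14:66883453-66900136. In the chromosome 13 run, chr13:3836495-3836997 and chr13:3852887-3853391 had nearly the same counts. In pro-HSC/HPC these were 85, 30 and 27 against 81, 30 and 34, and in pre-HSC II 26, 25, 40 and 22 against 26, 24, 43 and 22. Whether they share reads was not tested, so they may not count as separate regions.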

How the data were processed

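The deposited table gives unnormalized read counts of 35 libraries at 76018 peaks. DiffBind 1.14.6, MACS2 2.0.1, Bowtie 1.0.0, Trim Galore 0.3.1, deepTools, bedtools 2.17.0 and SAMtools, with build mm9, are named without a role in the submitters' processing notes. Filters, any shift of reads to the transposase's position and the counting rule are not given in the sources used here. Per the labels, 13 PCR cycles were used. Of the counts from 10 to 49, 54.1% to 78.2% per library were even, so reads may enter in pairs.

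The 402 regions, the lists and the tests were chosen with earlier results of these data known. The rule used CPM by column sum over all deposited columns. For pre-HSC I, libraries 2 and 3 gave 0.461 as chi-square over degrees of freedom, while the other 50 pairs within groups gave 2.59 to 8.04, and entered the tests as their mean (called replicate 2). Filtering (filterByExpr) left 67108 peaks. TMM and edgeR 4.0.16 (glmQLFit, glmQLFTest, two-sided) were applied in 1 fit of 34 samples with 25 residual degrees of freedom, with Benjamini-Hochberg adjustment over all tested peaks. The SE of a log2 fold change was its size over the square root of the F statistic, with a spread estimated over all groups. The test was checked on simulated counts.

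Named regions were the 8 with the highest mean of pro-HSC/HPC and pre-HSC II, the 8 with the smallest p among those higher in pre-HSC I than in EC, the 6 with the lowest pre-HSC I level relative to the blood groups, the smallest p per direction in the other contrasts, and those at the rule's edges. None is on chromosome 18. The sources used here do not say whether positions count from 0 or 1. Reference tables of another build were not used, so no gene names or sequences are given. Alternatives were RLE and total-count scaling, cyclic loess offsets, DESeq2 1.42.0, no filter, a fit of the compared groups, the replicate block, each library left out, thinning to 456770 counts, the libraries kept apart and other thresholds of the rule. Leaving out the shallow E8.5 libraries, the E9.5 libraries high in a chromosome X peak and E10.5 HE libraries 1 and 4 was added after seeing the data. Other software was R 4.3.3, limma 3.58.1, Python 3.11.15 and matplotlib 3.10.9.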

Additional observations from a re-analysis of the deposited data

Results flagged for a closer look

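In 112 groups of 4 libraries, for 15 named regions and for the share of counts in the 402 regions, 8 had a library far from the rest, where chance gives about 1 in 20 groups. Of the 8, 2 are single libraries with 1 or 2 counts beside 3 libraries at 0, which are flagged by construction. E10.5 HE library 4 had 0.211% of its counts in the 402 regions, against 0.0937% to 0.112% in the other HE libraries, and the rule used this group. E10.5 HE library 1 had 1.65 CPM at chr11:93682619-93683712, against 9.63 to 10.3 CPM in the others, and 17.3 CPM at chr15:58835480-58836233, against 3.21 to 4.54 CPM. Pre-HSC II library 2 had 121 CPM at chr6:124325245-124326089, against 78.8 to 83.8 CPM. E8.5 EC library 1 had 33.7 CPM at chr15:103169146-103171021, against at most 13.9 CPM in the others. E8.5 HE library 2 had 3.99 CPM at chr14:115345130-115346137, against 2.27 to 2.45 CPM. E8.5 EC library 4 had 0.359 CPM at chr5:139775134-139775715 and E8.5 EC library 3 0.750 CPM at chr9:99083600-99084112, where the other 3 libraries had 0.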

How the results depend on the processing

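The 218 regions higher in pre-HSC I than in EC became 109 of 207 tested (52.7%, beside 1.96% of all peaks) in a fit of those groups alone. After thinning they became 55 of 192 tested (28.6%, beside 1.44%). Both of these settings test fewer regions. With each library left out the count ran from 83 to 212. The other settings gave 194 to 279, and 0 regions were lower under each of them. The 29 lower in E9.5 EC than in E8.5 EC became 46 with DESeq2 (11.4%, beside 7.88% of all peaks) and 45 with total counts (11.2%, beside 7.14%). With the compared groups alone they became 37 of 117 tested (31.6%, beside 13.0% of all peaks). After thinning they became 14 of 192 tested (7.29%, beside 5.62%). Without the shallow E8.5 libraries 13 were lower (3.23%, beside 0.905%). Without the E9.5 libraries high in a chromosome X peak 16 were (3.98%, beside 1.22%), and with each library left out 19 to 26. With total counts the median of all peaks in that comparison was -0.30, against -0.07 with TMM. The 3 higher there became 1 with RLE and 0 with total counts, after thinning, or without either of these library sets, and 0 to 2 with each library left out. For E8.5 HE against EC, the 1 higher became 4 with DESeq2 (beside 2.93% of all peaks) and 2 with the pre-HSC I libraries kept apart (beside 1.39%). With the compared groups alone it became 3 of 118 tested (2.54%, beside 4.85%). It became 0 with total counts, after thinning or without the shallow libraries, and 0 to 1 with each library left out. The 0 lower became 4 with DESeq2 (beside 0.520% of all peaks) and 6 of 118 tested with the compared groups alone (5.08%, beside 2.45%). With cyclic loess 2 were lower (beside 0.180%). With total counts, the libraries kept apart or the replicate block 1 was (beside 0.148%, 0.149% and 0.195%). With each library left out 0 to 2 were. For E10.5 EC against E9.5 EC, DESeq2 gave 1 higher and 6 lower, beside 0.231% and 1.06% of all peaks. The compared groups alone gave 4 of 117 tested lower (3.42%, beside 1.92%), and leaving out libraries 0 to 1 either way.

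The next counts are of contrasts that the rule used. With the compared groups alone, the 197 higher in pro-HSC/HPC than in HE became 384 of 396 tested, beside 3.35% of all peaks. After thinning they became 59 of 192 tested, beside 0.607%. Without the libraries high in the chromosome X peak 100 were higher, beside 0.231%. With each library left out 65 to 131 were, beside 0.166% to 0.427%. The 342 higher in pre-HSC II became 178 of 192 tested after thinning, beside 8.83%. The rule took 96 regions at 20 CPM, 1102 at 5 CPM, 246 at 4 times and 373 to 497 with each library left out. Replicate numbers were shared across groups, and the samples were not treated as paired. Deviations of same-numbered libraries from their group means had correlations of -0.06 to 0.10 over all tested peaks. At E8.5 libraries 1 and 2 were the shallower ones in both EC and HE. Whether same-numbered libraries belong together was not tested. With the replicate block 207 regions were higher in pre-HSC I (beside 1.84% of all peaks) and 34 lower in E9.5 EC (beside 5.04%). In that fit chr9:114008031-114008370 lost its call (edgeR adjusted p 0.0711). Of 405 log2 fold changes of named regions, 345 kept direction and call, 51 lost their call, 3 gained one and 6 turned. Those were chr15:59973169-59973599 (-0.16) and chr3:96097781-96098163 (-0.10) with cyclic loess, and, with a library left out, chr3:96097781-96098163 (-0.41 to 0.78), chr5:150057186-150058071 (-0.24 to 1.10) and chr9:114008031-114008370 (-2.17 to 5.92). The cause was not tested. Depth limits the shallow libraries, where 3 counts reach 6.57 CPM.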
